A study of Drosophila melanogaster with 8 samples.

Results

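The genes described here carry the Activin and BMP signals of the fly, and their transcripts were measured in larval ring glands. They are the ligand dpp, the type I receptors babo, tkv and sax, the type II receptors put and wit, the receptor Smads Smox and Mad, the co-Smad Med and the inhibitory Smad Dad. These 10 of the 17558 genes in the deposited table were chosen by symbol. The symbols of 9 were found as written, and the inhibitory Smad, sought as dad, is listed as Dad and was taken under that spelling. All 10 passed the filter on low counts, which kept 9317 genes.

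The study compared w[1118] larvae, called wild type here, with larvae carrying the kdm5[140] allele, a null allele of the histone demethylase gene Kdm5. Both were dissected as wandering larvae of the last instar, at about 5 days after egg laying for wild type and about 7 days for the mutant, so age and genotype cannot be told apart. Each genotype had 4 libraries of polyA-selected RNA, each from 80 pooled ring glands of both sexes. The ring gland is made of the prothoracic gland, which secretes ecdysone, the corpus allatum and the corpora cardiaca, and all 3 were sequenced together.

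In this pathway a secreted dimer of the TGF-beta family joins type I and type II receptor kinases, and the type I receptor phosphorylates a receptor Smad, which enters the nucleus with the co-Smad. Activin-type ligands act through babo and Smox, and BMP-type ligands such as Dpp through tkv or sax and Mad, while put and Med serve both branches. In the prothoracic gland, Activin signalling is known to maintain the receptors for prothoracicotropic hormone and insulin, and Dpp is known to restrain ecdysone production.

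Between 17131110 and 19494692 counts fell on genes in each library. The transcript of the targeted gene, listed as lid, was higher rather than lower in the mutant libraries (153.9 ± 13.3 CPM for wild type and 196 ± 3.19 CPM, SD, n = 4 each, edgeR FDR = 0.00437). Whether the transcript is intact cannot be read from gene counts, so directions below compare the libraries as labelled. The prothoracic gland markers nvd, spok, sro, phm, dib and sad were all present, as were jhamt of the corpus allatum and Akh of the corpus cardiacum. Their sum was 41010 to 43950 CPM for wild type and 30106 to 39102 CPM in the Kdm5[140]-labelled libraries for the 6 prothoracic genes, of which sro and dib were called higher and spok lower. Markers of neurons, glia, muscle, fat body, salivary gland, blood cells and heart were detected too, and none of these genes was at 0 in every library. With 1 library left out, lid was called in 2 of 8 fits, dib in 4 and spok and sro in all 8. In such mixed tissue, fewer cells of a type and less RNA per cell cannot be told apart.

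Levels are given as CPM, counts scaled to library size with TMM factors, and differences as edgeR log2 fold changes of the Kdm5[140]-labelled libraries over wild type. A gene was called at the study's threshold, a Benjamini-Hochberg adjusted p (FDR) under 0.01 over all 9317 genes. Of the 10 genes, 1 was called, tkv, and it was lower, where 17.5% of all tested genes were called, 7.91% as higher and 9.62% as lower. The median log2 fold change of the 10 was −0.03, and that of all tested genes was 0.02. Wild-type and mutant values were fully apart for 2 of the 10, tkv and put, where 33.2% of all tested genes had no overlap.

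**Figure D1:**
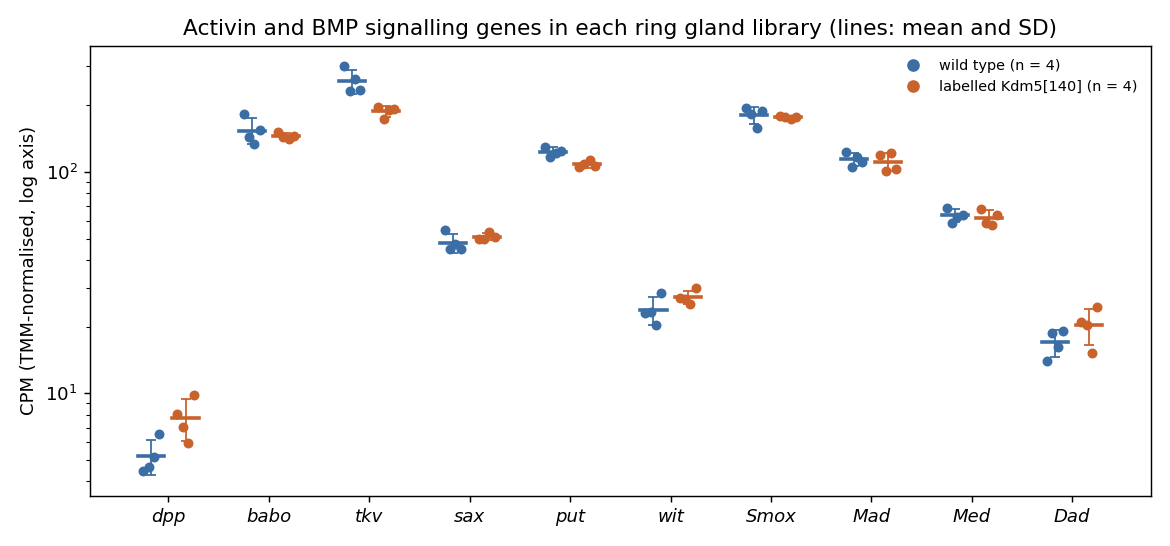
TMM-normalised CPM (log axis) of the 10 genes in each of the 4 wild-type (blue) and 4 Kdm5[140] (orange) libraries; points are libraries, horizontal lines are means and bars are SDs. The groups are apart for tkv and put, and overlap for the other 8 genes.

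Per kilobase of gene model, which allows genes of different length to be set side by side, the wild-type levels of the 10 genes spanned from 0.997 CPM per kb for dpp to 58.0 CPM per kb for tkv. tkv, the main type I receptor for Dpp, stood at the percentile 86.5 of all tested genes on this scale, and dpp at the percentile 13.1. Smox came next to tkv with 40.0 ± 3.63 CPM per kb, followed by Mad with 33.4 ± 2.28, put with 30.7 ± 1.44 and babo with 30.1 ± 4.05 CPM per kb (SD, n = 4 each). The wild-type libraries of tkv lay above those of Smox, while Smox and Mad overlapped, as did Mad, put and babo. Med and sax followed at 18.5 ± 1.20 and 16.7 ± 1.64 CPM per kb and overlapped too. wit, at 5.63 ± 0.800 CPM per kb, and Dad, at 4.35 ± 0.606 CPM per kb, overlapped each other and lay between these and dpp.

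Among the receptors, tkv was the gene called. In dm6 it spans 2L from 5219000 to 5271384, minus strand, with 7 merged exons. Wild-type replicates 1 to 4 had 299.7, 231, 264 and 234 CPM of tkv, and Kdm5[140] replicates 1 to 4 had 196, 173, 189 and 193 CPM. No mutant value reached the wild-type range, and wild-type replicate 1 was the highest of all. The means were 257 ± 32.0 and 188 ± 10.5 CPM (SD, n = 4 each), which gave −0.45 as log2 fold change (standard error, SE, 0.09, edgeR FDR = 0.0047) or 26.9% less. Without wild-type replicate 1 it was −0.37 (edgeR FDR = 0.00342). The call was lost, with values from −0.48 to −0.41, when 1 of 5 other libraries was left out: wild-type replicate 3 (edgeR FDR = 0.0165) or Kdm5[140] replicate 1, 2, 3 or 4 (0.0119, 0.0179, 0.0113 and 0.0121). The summed prothoracic gland markers were also lower in every library labelled Kdm5[140], highest among them in replicate 3. Of the 6 genes summed, only spok was called lower, while sro and dib were called higher. The part of these markers in the fall of tkv was not tested. Of the exon bases of tkv, 212 overlap CR14033 and TpnC25D on the opposite strand, but neither gene had more than 1.38 CPM in any library.

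The other type I receptors did not follow tkv. babo, the Activin receptor (2R, 8952339 to 8962796), had 182, 144, 134 and 154 CPM in wild-type replicates 1 to 4 and 152, 144, 141 and 146 CPM in the Kdm5[140]-labelled libraries. The mutant values lay inside the wild-type range, and the log2 fold change was −0.08 (SE 0.09, edgeR FDR = 0.549), with a 95% interval from −0.30 to 0.14. Sax, which serves mainly glass bottom boat signals, is encoded on 2R as well (7806484 to 7810067). sax had 54.8, 44.9, 47.0 and 45.0 CPM for wild type and 49.7, 49.6, 53.6 and 50.7 CPM in the Kdm5[140]-labelled libraries. Only wild-type replicate 1 lay above the mutant libraries, and the log2 fold change was 0.09 (95% interval from −0.10 to 0.27, edgeR FDR = 0.416).

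The type I receptors can also be set against each other within a library, as a description. tkv made up 55.3 ± 2.08% of the summed level per kb of the type I receptor genes in wild type and 47.8 ± 1.12% in the Kdm5[140]-labelled libraries. In the same order, sax made up 16.0 ± 0.286% and 20.05 ± 0.889%, and babo 28.7 ± 2.11% and 32.2 ± 1.01% (SD, n = 4 each). The shares sum to the whole, so a lower tkv share goes with higher shares of the others. Neither sax nor babo was itself called. The tkv share was 53.5 to 58.2% in wild type and 46.1 to 48.5% in the mutant libraries. These shares do not depend on how libraries were scaled.

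Of the type II receptors, put, which pairs with Activin and BMP receptors alike (3R, minus strand, 14619030 to 14625703), had 130.2, 116, 121.5 and 125 CPM in wild-type replicates 1 to 4. It had 105, 108, 113 and 106 CPM in the Kdm5[140]-labelled libraries, all below wild type. The log2 fold change of −0.19 (SE 0.06, edgeR FDR = 0.0307) did not pass 0.01 in this fit. It passed with the DESeq2 Wald test (FDR = 0.0096), which called 21.9% of the genes it tested, and with an offset for gene length (edgeR FDR = 0.00953). It did not pass with limma (FDR = 0.0323) or in any of the 8 fits with 1 library left out. At an FDR under 0.05, put and tkv were the 2 of 10 genes called, where 30.9% of all tested genes were.

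wit, a type II receptor best known from BMP signalling at the motor neuron terminal (3L, minus strand, 4064152 to 4071717), had 23.1, 23.3, 20.2 and 28.3 CPM in wild type. It had 26.9, 26.7, 25.3 and 29.8 CPM in the Kdm5[140]-labelled libraries, and wild-type replicate 4 fell among them. Its log2 fold change was 0.19 (SE 0.11, edgeR FDR = 0.194). The value is uncertain, because 400 of its exon bases overlap exons of dib on the opposite strand and the sources used here give no strand setting for the counting. dib, an ecdysone synthesis gene, was far more abundant and itself higher, at 547 to 627 CPM for wild type and 770 to 1086 CPM in the Kdm5[140]-labelled libraries (edgeR FDR = 0.0044). Whether the overlap changed the wit counts, and in which direction, was not tested.

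The Smads that carry the signal into the nucleus had the smallest log2 fold changes of the 10 genes. Smox, the Activin receptor Smad (X, minus strand, 8137041 to 8142279), had 195, 182, 157 and 189 CPM in wild-type replicates 1 to 4 and 179, 178, 174 and 178 CPM in the Kdm5[140]-labelled libraries. Mad, the BMP receptor Smad (2L, minus strand, 3146056 to 3159643), had 123, 105, 117 and 111 CPM for wild type and 119, 101, 122 and 103 CPM in the mutant libraries. Med, the partner of both (3R, plus strand, 31611046 to 31615375), had 68.8, 58.9, 62.5 and 63.8 CPM in wild type. Its mutant values were 68.2, 58.5, 57.3 and 64.2 CPM. For all 3 genes the groups overlapped.

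The log2 fold changes of Smox, Mad and Med were −0.03, −0.04 and −0.03 (edgeR FDR = 0.765, 0.762 and 0.765). Their 95% intervals ran from −0.21 to 0.14, from −0.24 to 0.16 and from −0.22 to 0.15. The size of any difference is thus bounded, but equal levels were not shown. The sign of each of these values turned under at least 1 other setting. Exons of Med overlap CycG and Mnat9 on the opposite strand by 423 bases, so its level is uncertain.

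Dad, the inhibitory Smad and itself a target of BMP signalling in many tissues (3R, plus strand, 17054007 to 17070408), had 14.0, 18.7, 16.1 and 19.1 CPM in wild-type replicates 1 to 4. It had 20.9, 20.4, 15.2 and 24.5 CPM in the Kdm5[140]-labelled libraries. Of these, 3 lay above all wild-type libraries and replicate 3 lay among the wild-type values. The log2 fold change was 0.26 (SE 0.15, edgeR FDR = 0.231).

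dpp, the BMP ligand (2L, plus strand, 2428372 to 2459823), was the least abundant member. It had 4.44, 4.65, 5.18 and 6.52 CPM in wild-type replicates 1 to 4 and 8.07, 7.06, 5.98 and 9.86 CPM in the Kdm5[140]-labelled libraries. The groups overlapped through wild-type replicate 4 and Kdm5[140] replicate 3. dpp had the highest log2 fold change of the 10 genes, 0.58, and the widest standard error, 0.21, and was not called (edgeR FDR = 0.0595, unadjusted p = 0.0198). Markers of neurons were also low in that mutant library, and so were those of glia, muscle and fat body. The sum of 7 neuronal markers was 151 to 228 CPM for wild type and 189 to 294 CPM in the Kdm5[140]-labelled libraries, with 189 in replicate 3. Of the 7, only elav was called (edgeR log2 fold change 0.39, FDR = 0.00495, in 4 of 8 fits with 1 library left out), all 7 had positive values, and their part in the dpp values was not tested.

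The other genes of the pathway were taken from a list of 39, of which 36 were tested. In this list 2 genes were higher (salm and Fur2) and 2 lower (dally and spict), so that 4 of 36 (11.1%) were called, beside 17.5% of all genes. The median log2 fold change of the 36 was 0.04.

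**Figure D2:**
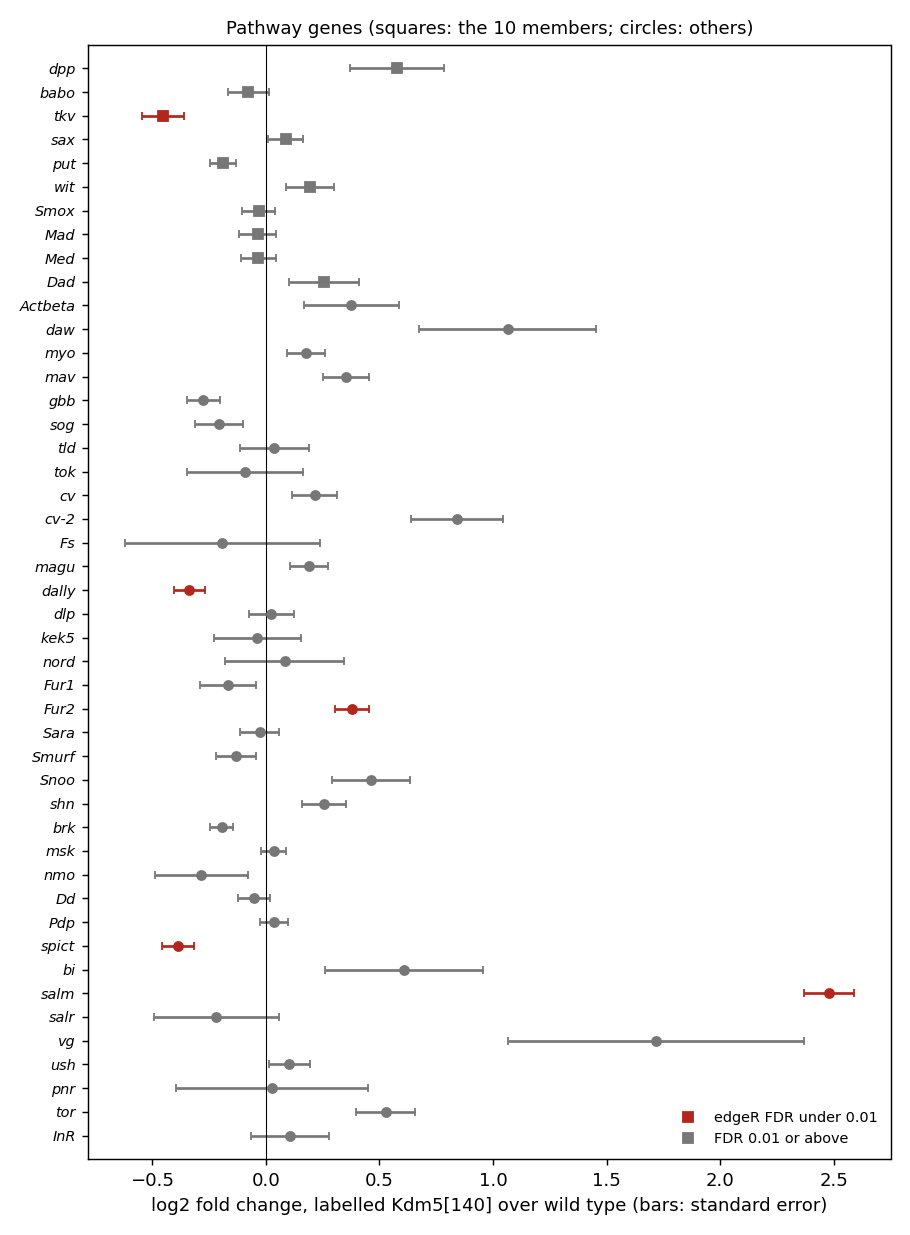
edgeR log2 fold change (horizontal axis) of the 10 genes (squares) and the 36 tested genes of the pathway list (circles), with standard errors as bars; red marks an FDR under 0.01. Called genes are tkv, dally, Fur2, spict and salm, and salm has the highest value, 2.48.

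None of the other ligands was called (0 of 5 tested), where 17.5% of all tested genes were. An unadjusted edgeR p under 0.05 was found for 3 of them, and for 3956 of all 9317 tested genes. The DESeq2 Wald test called 2, mav and gbb, where it called 21.9% of the genes it tested. Per kb, the wild-type means of the Activin-type ligands myo, daw and Actbeta (53.9, 10.3 and 1.85 CPM per kb) were all above that of dpp. myo, which encodes Myoglianin (chromosome 4), had 249.97, 207, 200.4 and 199.7 CPM in wild-type replicates 1 to 4 and 236, 248, 255 and 229 CPM in the Kdm5[140]-labelled libraries. Wild-type replicate 1 stood apart from the other wild-type libraries and above 3 of the 4 mutant libraries. The log2 fold change was 0.18 (edgeR FDR = 0.136), and 0.26 without that library (edgeR FDR = 0.0086), which made it a call. Of the 8 fits with 1 library left out, only that 1 called myo. gbb had a wild-type mean of 49.9 ± 2.10 CPM per kb, within the spread of myo (SD 6.06, n = 4 each).

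gbb, the BMP ligand glass bottom boat (2R, plus strand, 23851562 to 23853247), had 85.0, 87.3, 79.0 and 84.8 CPM for wild type and 69.8, 62.9, 77.8 and 67.5 CPM in the Kdm5[140]-labelled libraries. All 4 mutant values lay below wild type, replicate 3 by the least. The log2 fold change of −0.27 (SE 0.07) had an edgeR FDR of 0.0188. Without Kdm5[140] replicate 3 it was −0.33 (edgeR FDR = 0.00571), and the DESeq2 Wald test gave an FDR of 0.0043. With limma the FDR was 0.0184. Of the 8 fits with 1 library left out, 1 called gbb.

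mav, or maverick, encodes a divergent ligand of the family and lies on chromosome 4 like myo and Actbeta. It had 89.5, 72.3, 81.9 and 77.3 CPM for wild type and 98.2, 106.5, 118 and 87.4 CPM in the Kdm5[140]-labelled libraries, overlapping through a single library on each side. Its log2 fold change was 0.35 (SE 0.10, edgeR FDR = 0.0241, DESeq2 FDR = 0.00972). With limma the FDR was 0.0283, and none of the 8 fits with 1 library left out called mav.

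daw, the Activin-type ligand Dawdle, varied most. It had 18.4, 32.5, 27.2 and 56.0 CPM for wild type and 88.8, 56.9, 43.7 and 91.1 CPM in the Kdm5[140]-labelled libraries, a log2 fold change of 1.06 with a standard error of 0.39 (edgeR FDR = 0.0771). Wild-type replicate 4 lay above the lowest mutant library. Actbeta was rare, at 5.35 to 8.89 CPM for wild type and 6.47 to 10.4 CPM in the mutant libraries (edgeR log2 fold change 0.38, FDR = 0.202). For both ligands the lowest mutant library was replicate 3, as for dpp and the summed markers of neurons, glia, muscle and fat body. Among the mutant libraries it was the highest for the summed prothoracic gland markers. The part of any of these markers was not tested. scw, a BMP ligand of the early embryo, had at most 3 counts in any library and was not tested.

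Of 15 extracellular regulators of the pathway, 13 were tested, 1 was higher and 1 lower (15.4% called, beside 17.5% of all tested genes). dally, a heparan sulphate proteoglycan that binds Dpp at the cell surface (3L, plus strand, 8827505 to 8891192), had 271, 246, 264 and 264 CPM in wild-type replicates 1 to 4 and 225, 215, 194 and 193 CPM in the Kdm5[140]-labelled libraries. No mutant library reached the lowest wild-type value. Its log2 fold change was −0.34 (SE 0.07, edgeR FDR = 0.00543). In fits that left out 1 library it ran from −0.38 to −0.30 and lost the call in 6 of 8, namely without wild-type replicate 2, 3 or 4 (edgeR FDR = 0.0104, 0.0178 and 0.0194) or without Kdm5[140] replicate 2, 3 or 4 (0.0137, 0.0126 and 0.0193).

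Fur2, a furin protease of the kind that cuts BMP precursors (X, plus strand, 16373086 to 16381782), had 194, 166, 169 and 189 CPM in wild type. It had 246, 240.4, 215 and 231 CPM in the Kdm5[140]-labelled libraries, all above wild type. Its log2 fold change was 0.38 (SE 0.07, edgeR FDR = 0.00411). It stayed between 0.34 and 0.42 with 1 library left out, and the call was lost without wild-type replicate 2 or 3 (edgeR FDR = 0.017 each) or Kdm5[140] replicate 1, 2 or 4 (0.0152, 0.0156 and 0.0113).

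Both tsg and srw, which encode BMP-binding proteins of the embryo, had at most 2 counts in any library. The metalloprotease gene tok, named after its values were seen, was the most abundant of the list in wild type, with 239 ± 97.6 CPM per kb (SD, n = 4). Its replicate 1 held 2079 CPM beside 964 to 1104 CPM in the other wild-type libraries. cv-2, a BMP-binding protein of wing vein formation likewise named afterwards, had 6.84 to 7.45 CPM for wild type and 9.97 to 18.8 CPM in the Kdm5[140]-labelled libraries (edgeR log2 fold change 0.84, FDR = 0.0108). cv-2 was called by the DESeq2 Wald test (FDR = 0.00144), with no filter on low counts, and without Kdm5[140] replicate 3 (edgeR FDR = 0.00958). It was called in 1 of the 8 fits with 1 library left out, and not with limma (FDR = 0.024).

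Inside the cell, 10 regulators were tested and 1 was lower. spict, or spichthyin, encodes a protein of early endosomes that restrains BMP signalling in motor neurons (2L, plus strand, 12704725 to 12706683). It had 52.5, 56.5, 56.1 and 48.4 CPM for wild type and 39.1, 40.4, 43.9 and 39.8 CPM in the Kdm5[140]-labelled libraries, without overlap. Its log2 fold change was −0.39 (SE 0.07, edgeR FDR = 0.00289). With 1 library left out it ran from −0.43 to −0.36, and the call was lost without wild-type replicate 2 or 3 (edgeR FDR = 0.0118 and 0.0116) or Kdm5[140] replicate 1, 2 or 4 (0.0119, 0.0116 and 0.0109). brk, the repressor of Dpp targets, was named after its values were seen for its narrow spread, with 78.1 ± 1.65 CPM for wild type and 68.3 ± 1.11 CPM in the Kdm5[140]-labelled libraries (SD, n = 4 each). Its groups did not overlap, and its log2 fold change of −0.19 had an edgeR FDR of 0.0171. brk was called by the DESeq2 Wald test (FDR = 0.00346) and with the gene length offset (edgeR FDR = 0.00235), and in none of the 8 fits with 1 library left out.

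The largest difference in the list was that of salm, a zinc-finger transcription factor gene that Dpp activates in the wing disc (2L, minus strand, 11434311 to 11445614). Wild-type replicates 1 to 4 had 390.3, 320.4, 277 and 362 CPM, and Kdm5[140] replicates 1 to 4 had 2004, 1780.4, 1912 and 1829 CPM. The lowest mutant library was far above the highest wild-type library. The means were 338 ± 49.4 and 1881 ± 98.1 CPM (SD, n = 4 each), a 5.57-fold difference (log2 2.48, standard error 0.11, edgeR FDR = 7.91e-07). It was called in all 8 fits that left out a library, with values from 2.39 to 2.55. Among the 737 genes called higher, salm ranked 111 by log2 fold change.

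None of the other 5 genes known as Dpp targets in other tissues was called, where 17.5% of all tested genes were. salr, the neighbouring relative of salm on 2L (11358873 to 11373636), had 164, 136, 112 and 177 CPM for wild type and 159.8, 114, 69.6 and 163 CPM in the Kdm5[140]-labelled libraries, a log2 fold change of −0.22 (SE 0.28, edgeR FDR = 0.589). bi, ush and pnr, named after their values were seen, had log2 fold changes of 0.61, 0.10 and 0.03 (edgeR FDR = 0.214, 0.418 and 0.969). vg was close to absent, at 0.165 to 2.69 CPM over all libraries (edgeR FDR = 0.0719).

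**Figure D3:**
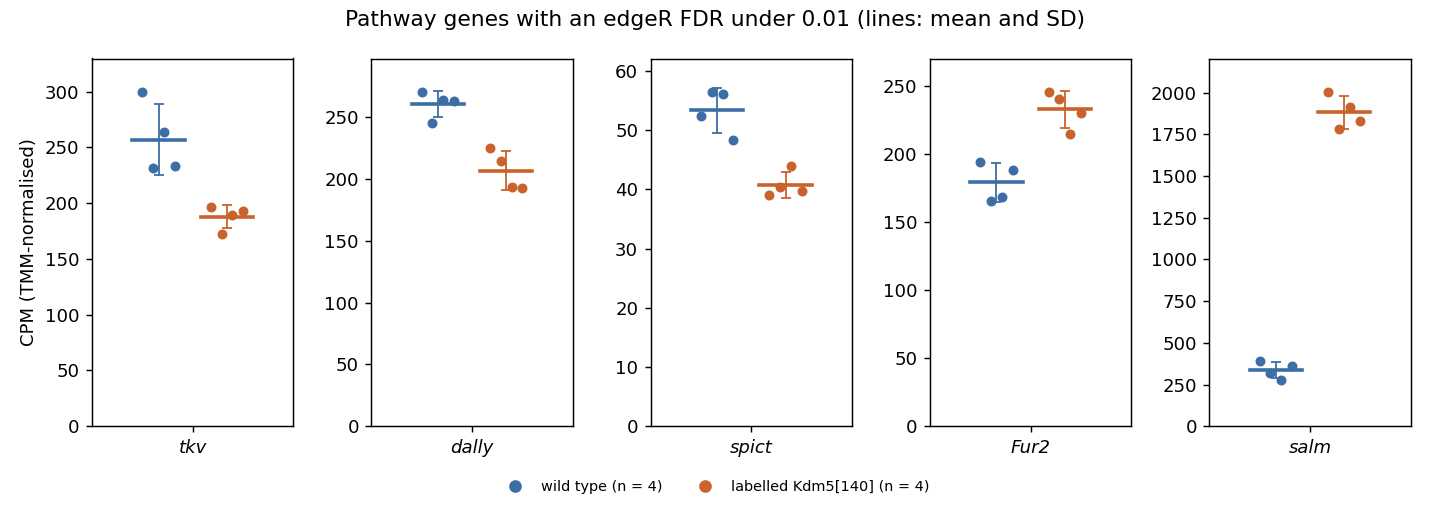
CPM (vertical axes from 0) of the 5 called genes in each wild-type (blue) and Kdm5[140] (orange) library, with means and SDs as lines. Mutant libraries lie below all wild-type libraries for tkv, dally and spict and above all of them for Fur2 and salm.

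Ratios between related genes were taken within each library, per kb, for 8 pairs. The pairs had been chosen with their values known. An exact permutation test was run on all 8, but after such a choice its p-values support nothing and are not given, and the ratios stand as a description. The groups were apart for 5 of the 8. In each of these the first gene was itself called and without overlap and the second was not called. These ratios are thus no separate result. The ratio of tkv to babo was 1.75 to 2.27 in wild type and 1.38 to 1.55 in the Kdm5[140]-labelled libraries, a log2 difference of −0.38. That of tkv to sax went from 3.33 to 3.62 in wild type to between 2.25 and 2.55 in the mutant libraries, a log2 difference of −0.54.

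The ratio of dally to dlp, the other glypican gene, differed by −0.37, and that of Fur2 to Fur1 by 0.53 on the log2 scale. For salm to salr the ratio was 1.86 to 2.24 in wild type and 10.2 to 24.9 in the Kdm5[140]-labelled libraries, a log2 difference of 2.76. The groups overlapped for put to wit, Smox to Mad and tok to tld, with log2 differences of −0.39, 0.01 and −0.09. The ratio of the Activin to the BMP receptor Smad was 1.01 to 1.31 in wild type and 1.08 to 1.33 in the mutant libraries.

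**Figure D4:**
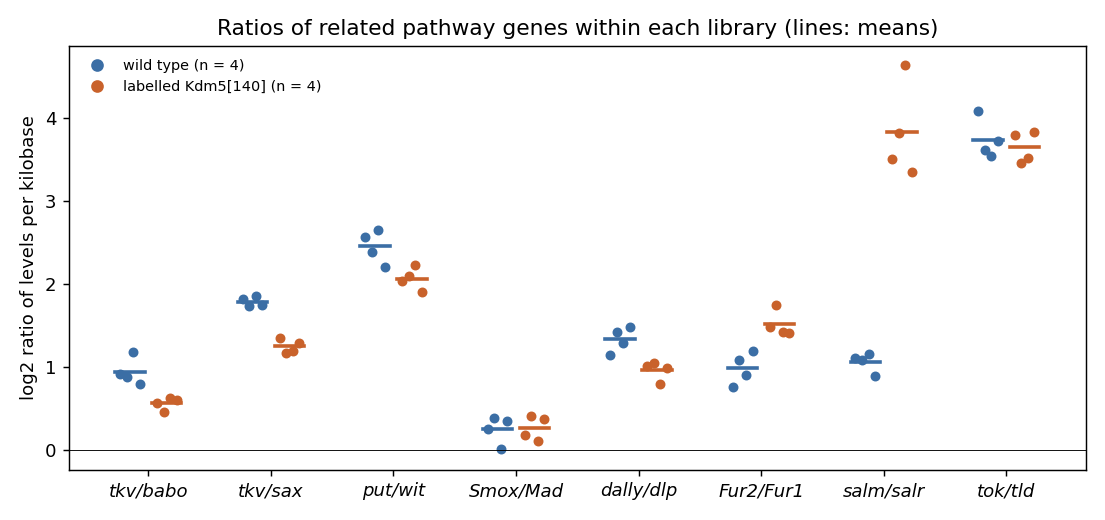
Log2 ratio of levels per kb (vertical axis) for 8 pairs of related genes in each wild-type (blue) and Kdm5[140] (orange) library, with means as lines. The groups are apart for tkv/babo, tkv/sax, dally/dlp, Fur2/Fur1 and salm/salr, and overlap for put/wit, Smox/Mad and tok/tld.

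Neither of the receptors that Activin signalling is known to maintain in the prothoracic gland was called, where 17.5% of all tested genes were. tor, the receptor for prothoracicotropic hormone, had 229, 161, 151 and 161 CPM in wild-type replicates 1 to 4 and 272, 238, 272 and 232 CPM in the Kdm5[140]-labelled libraries. All mutant values were above wild type, and wild-type replicate 1 stood apart from its group. The log2 fold change was 0.53 (edgeR FDR = 0.0134), and without that library it was 0.68 (edgeR FDR = 0.000209). tor was also called with upper quartile scaling, a filter at 5 CPM and the DESeq2 Wald test (FDR = 0.0075, 0.00911 and 0.000652). It was not called with limma (FDR = 0.0115) or the gene length offset (edgeR FDR = 0.0153). With 1 library left out it was called in 1 of 8 fits. InR, the insulin receptor, had 105, 73.7, 60.9 and 78.5 CPM for wild type and 102, 87.5, 68.4 and 84.8 CPM in the mutant libraries, with a log2 fold change of 0.11 (95% interval from −0.32 to 0.53, edgeR FDR = 0.673).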

How the data were processed

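The data are bulk mRNA-seq counts of 8 ring gland libraries, 4 per genotype. The authors aligned reads to dm6 with HISAT2 2.0.5, assembled with StringTie 1.3.3b, and deposited whole-number counts per gene from featureCounts 1.5.0-p3. The annotation release and strand setting are not given in the sources used here. The deposited table also holds FPKM, group means and the authors' DESeq2 1.20.0 fold changes and p-values, which were not used. Gene length is another deposited value, in bases; for the 10 genes it equals the merged exon length of the reference annotation.

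Counts were compared with edgeR 4.0.16 (TMM, filterByExpr, robust quasi-likelihood test, Benjamini-Hochberg) in R 4.3.3. Standard errors were derived from the F statistic and 95% intervals from them with 6 degrees of freedom. DESeq2 1.42.0 and limma 3.58.1 gave alternatives, beside other scalings, filters, a gene length offset, a replicate block and each library left out. Ratios within libraries, for pairs chosen after their values were seen, were put to an exact permutation test whose p-values are not used. The fits were tested on simulated data. The members, lists and tests were chosen with earlier results of these data known. Named were all 10 members, the other ligands, called genes of the list, tor and InR; others were named after their values were seen. Counts limit precision at 3 counts per library, 0.149 to 0.181 CPM, and intervals cover these libraries only, since each is a separate pool of glands but not stated to be a separate culture. No sequence is printed.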

Additional observations from a re-analysis of the deposited data

Results flagged for a closer look

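In 2 cases among 42 groups of 4 libraries examined, for the genes given with values per library, 1 library stood apart from the other 3 by Dixon's test at 95%, which flags about 1 in 20 groups by chance. Both cases were in wild-type replicate 1. There myo had 249.97 CPM, against 199.7 to 207 CPM in the other wild-type libraries, and tor had 229 CPM, against 151 to 161 CPM. Without that library both genes had an edgeR FDR under 0.01, at log2 fold changes of 0.26 and 0.68. Genes outside those groups were not examined. Among them was tok, with 2079 CPM in wild-type replicate 1 beside 964 to 1104 CPM in the other wild-type libraries.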

How the results depend on the processing

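Leaving out 1 library in turn gave 960 to 1827 calls over all genes in place of 1633, 0 to 1 in place of 1 among the 10 genes, and 1 to 7 in place of 4 in the pathway list. At an FDR under 0.05 the counts were 2875, 2 and 9. The DESeq2 Wald test called 2443, 2 (tkv and put) and 9, and the gene length offset 1873, 2 (tkv and put) and 5. tkv was called and lower with each other test, scaling and filter. With genes of at least 5 CPM the call of dally was lost (edgeR log2 fold change −0.30, FDR = 0.0101). Signs turned for genes near 0. With at least 5 CPM, Smox was at 0.0057 and Med at 0.0041, and with 1 library left out babo ran from −0.14 to 0.012, Smox from −0.10 to 0.0034, Mad from −0.0845 to 0.0067, Med from −0.0836 to 0.0042 and InR from −0.0049 to 0.27. The filter at 5 CPM moved log2 fold changes by a median of 0.037 over 7386 genes. The cause of the turned signs was not tested. A replicate block gave 1617 calls, 1 and 5, tor being added, but the libraries share only a number. Deviations of same-numbered libraries correlated at 0.07, 0.12, 0.19 and −0.12. Wild-type replicates 1, 2 and 4 correlated best with a mutant library of another number. Depth limits dpp, vg, scw, tsg and srw.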
